A study of Homo sapiens with 160 samples.

Results

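The genes described are the long non-coding RNA genes with systematic names in BEAS-2B cells, an established line of human bronchial epithelial cells. They were chosen by name and by measured level, as every gene whose symbol starts with LINC, has the form of a microRNA host gene, or ends in -AS1, -AS2 or -DT, and whose mean value over all libraries used was at least 2. Of the 29273 genes in the table, 44 have such a symbol, 33 of them starting with LINC, 10 ending in -AS1 and 1 in -AS2, and no microRNA host gene or -DT gene is listed. The level left 14 members, 9 with LINC names and 5 with -AS1 names. Members were selected on their mean level over all libraries, and the naming rule itself was proposed with earlier treatment results of these data known. The lowest members were SRP54-AS1, at a mean of 2.22, and LINC00888, at 2.32, and the highest genes left out were LINC00643, at 1.37, and GCSAML-AS1, at 1.30.

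Total RNA was sequenced after 8 treatments, each lasting 1, 2, 6 or 18 h, and 5 replicates were planned per group. Confluent cells spent the night without serum and then received vehicle, the glucocorticoid mometasone (100 nM), the long-acting β2-adrenoceptor agonist indacaterol (100 nM), the muscarinic agonist carbachol (10 µM), each pair of these agents, or all 3 together. All groups share the line, which is 1 transformed line and not a differentiated airway epithelium. Of 160 libraries, 150 were used, which gave 24 groups of 5, 6 of 4 and 2 of 3. Nothing in the labels shows that replicates came from separate cultures. P-values therefore rest on a spread between libraries that may be technical only.

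Long non-coding RNAs are transcripts with no recognised protein product. Antisense members, marked -AS, lie across or beside a protein-coding gene on the opposite strand, and intergenic ones, marked LINC, are named for lying between coding genes. Glucocorticoids act through a nuclear receptor that binds DNA, and β2-adrenoceptor agonists raise cyclic AMP, which activates CREB proteins at cyclic AMP response elements. In airway epithelium both are known mainly through protein-coding genes, and the function of most of the members is unknown.

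The set is not a general sample of such RNAs. GENCODE 29 types all 14 members as transcribed pseudogenes, whereas RefSeq types 13 as long non-coding RNA and TP73-AS1 as a transcribed pseudogene. Of the genes in the table, 22 carry a long non-coding RNA type in GENCODE 29, which holds 14972 such symbols, and 933 carry a transcribed pseudogene type. A second list, of 35 well-known long non-coding RNAs outside the naming rule, had 2 genes in the table, TUG1 (mean 40.6) and SNHG32 (mean 233).

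Sequences are shown for some members described below, from RefSeq on GRCh38.p14. Whether any value depends on a motif in them was not tested. Promoter windows, running from 250 bases before to 50 after a start, matched 10 of 14 members and gave 13 windows. No window was matched for SLC44A3-AS1, TP73-AS1, LINC00680 and LINC01881. The window of LINC01085 is shown because this gene moved most with treatment. It lies at chr4:14111718-14112017 on the plus strand, and capitals mark TGTTCT, which reads AGAACA, one arm of the glucocorticoid response element, on the other strand.
LINC01085: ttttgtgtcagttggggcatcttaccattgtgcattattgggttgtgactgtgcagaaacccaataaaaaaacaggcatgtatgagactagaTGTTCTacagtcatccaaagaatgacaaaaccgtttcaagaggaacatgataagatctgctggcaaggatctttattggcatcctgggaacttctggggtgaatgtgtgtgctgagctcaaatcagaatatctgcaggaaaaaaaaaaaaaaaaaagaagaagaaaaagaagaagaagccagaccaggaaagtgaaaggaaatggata

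The first window of LINC00888 is shown because the gene was higher with mometasone at 6 h in 3 treatments. It lies at chr3:183447358-183447657 on the plus strand, and capitals mark TGACG, one arm of the cyclic AMP response element. The glucocorticoid response element arm AGAACA was not found in it.
LINC00888: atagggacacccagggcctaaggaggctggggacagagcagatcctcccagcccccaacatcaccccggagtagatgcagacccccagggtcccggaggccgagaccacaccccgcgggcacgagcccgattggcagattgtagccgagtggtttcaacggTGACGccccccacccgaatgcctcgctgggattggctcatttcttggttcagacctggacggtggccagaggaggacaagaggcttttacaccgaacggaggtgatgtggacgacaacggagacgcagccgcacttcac

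Motifs were searched on both strands as spelled, and the share of all 35116 windows of the same length that hold each is given beside it. The spacing of the glucocorticoid response element, ACANNNTGT, was in 1 of the 13 windows (5.37% of all), and its arm AGAACA was in 2 (14.8%). The cyclic AMP response element TGACGTCA was in 1 window (1.85%), and its arm TGACG, which lies inside the full element, in 4 (24.6%). Among these 4 are both windows of LINC00888, which overlap and hold the same TGACG site. The AP-1 motif TGANTCA was in 1 window (7.71%) and the NR4A motif AAAGGTCA in 0 (1.22%). EMC3-AS1 held TGACGTCA, and a window of SVIL-AS1 held both ACANNNTGT and AGAACA. A match is a description of the letters.

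Stretches shared with other genes limit what a value of some members stands for. The longest match of LINC00680 to a gene in the table was 1084 bases at 97.33% identity with GUSBP1, a pseudogene of beta-glucuronidase. The stretch shown is the gap-free 120-base window of that match with the most mismatches, and capitals mark the 7 bases that differ.
LINC00680: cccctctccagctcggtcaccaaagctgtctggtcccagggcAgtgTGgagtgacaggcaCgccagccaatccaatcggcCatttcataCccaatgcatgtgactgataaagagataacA
GUSBP1: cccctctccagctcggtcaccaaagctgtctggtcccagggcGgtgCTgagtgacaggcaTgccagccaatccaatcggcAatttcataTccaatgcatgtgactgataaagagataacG

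Short reads that fall between such positions cannot be assigned to 1 of the pair, and how the authors treated them is not given in the sources used here. LINC00869 matched FAM91A1 over 3040 bases at 95.82%, LINC02210 matched KANSL1 over 476 at 99.79%, EMC3-AS1 matched FANCD2 over 530 at 95.66%, and SLC44A3-AS1 matched TIMM50 over 395 at 91.14%. TP73-AS1 matched the opposite strand of TP73 over 601 bases at 100%. LINC01881 matched FBXO25 over 560 bases at 96.96%, SVIL-AS1 matched the opposite strand of PTCHD3P1 over 537 at 100%, LINC01145 matched PARP8 over 483 at 93.38%, and LINC00674 matched SMURF2 over 339 at 95.28%. LINC00993 matched ATP8A2 over 121 at 91.74%. These are only the longest matches to genes in the table. LINC00869 also matched FAM91A2P over 2412 bases at 100% and FAM91A3P over 2417 at 99.01%, both in the table and on the same strand. LINC01145 matched LINC02591, which is not listed there, over 3389 bases at 99.73%, the length of its longest transcript. LINC01881 matched AL669831.3 and LINC00266-1, also not listed, over 629 bases at 99.2%. EMC3-AS1 matched 175 genes in the table, LINC02210 155, TP73-AS1 91, SLC44A3-AS1 25 and LINC01881 21, and the other members with a match 1 to 5. Values of these members are therefore uncertain. LINC01085, LINC00888 and SRP54-AS1 matched no other gene in the table, LINC00888 apart from a small nucleolar RNA that is not listed there. Whether the counting used strand is not stated, so reads of an antisense gene and its partner cannot be told apart.

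Levels spanned from a mean of 57.6 for SLC44A3-AS1 to 2.22 for SRP54-AS1. The unit is a normalised expression value as deposited, which the authors call TPM. SLC44A3-AS1 (chr1:94613814-94855426, minus strand) crosses SLC44A3, a member of the choline transporter-like family, and ranged from 14.08 to 183.85. LINC00674 (chr17:68101908-68115518, plus strand) had a mean of 52.4 and ranged from 10.49 to 169.71. EMC3-AS1 (chr3:9986893-10006990, plus strand), opposite EMC3 of the endoplasmic reticulum membrane protein complex, had a mean of 29.1, and SVIL-AS1 (chr10:29409402-29487745, plus strand), opposite the actin-binding supervillin gene, 26.5. The first pair had the widest ranges, and the order of EMC3-AS1 and SVIL-AS1 was not separated by their ranges, 16.08 to 47.53 and 12.97 to 45.97.

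Among the middle members, LINC02210 (chr17:45620328-45655156, plus strand) had a mean of 18.8, TP73-AS1 (chr1:3735511-3747373, minus strand) 14.8, LINC01085 (chr4:14111968-14140052, plus strand) 12.99 and LINC00869 (chr1:149606334-149679523, plus strand) 10.0. LINC02210 overlaps the readthrough gene LINC02210-CRHR1 on the same strand, and TP73-AS1 lies opposite TP73, a transcription factor of the p53 family. LINC00680 (chr6:57946074-57961501, minus strand) had a mean of 8.95, LINC01881 (chr2:242088633-242160153, plus strand) 7.55, LINC00993 (chr10:37248118-37347031, plus strand) 7.52 and LINC01145 (chr1:145164099-145216058, minus strand) 6.88. LINC00993 overlaps the coding gene ANKRD30A on the same strand, so some of its reads may belong to that gene. LINC00888 (chr3:183447608-183456013, plus strand), which RefSeq names SNHG33 and which holds 4 small nucleolar RNA genes, reached 1 or more in 146 libraries. SRP54-AS1 (chr14:34920858-34982532, minus strand), opposite the signal recognition particle gene SRP54, did so in 141. Neighbours in this order overlapped in range.

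**Figure D1:**
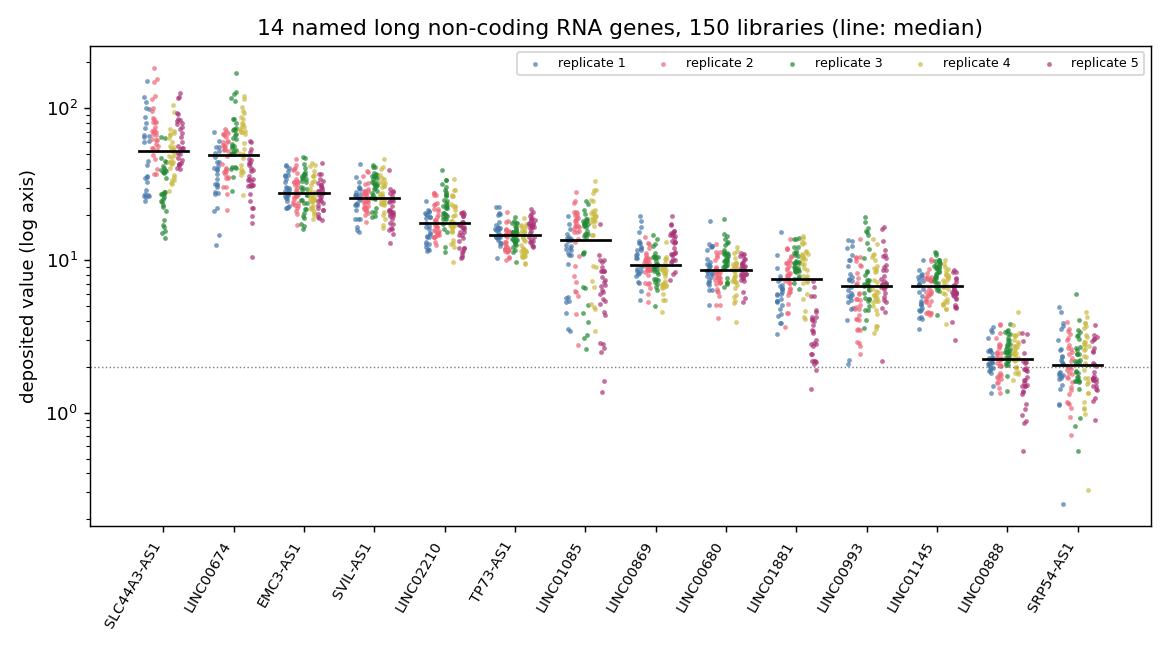
Levels of the 14 members in all 150 libraries, 1 point per library coloured by replicate, as the deposited value on a log axis, with a line at the median and a dotted line at 2. SLC44A3-AS1 sits highest with a mean of 57.6 and SRP54-AS1 lowest with 2.22.

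Within a time, group means differed most for LINC01085, at 18 h, where vehicle (15.7) was 6.03 times mometasone plus indacaterol (2.61). The largest such ratio was 2.88 for SRP54-AS1 at 2 h, 2.72 for SLC44A3-AS1 at 6 h and 2.38 for LINC00993 at 1 h. It was 2.09 for LINC00674 and 1.38 to 1.84 for the rest. On the deposited scale, which as TPM would be per length, SLC44A3 had a mean of 0.516 against 57.6 for its antisense gene. SVIL had 5.39 against 26.5, and TP73 5.80 against 14.8. EMC3 and SRP54 stood the other way, at 109 against 29.1 and 50.8 against 2.22. Antisense members were thus above their partner in 3 of 5 pairs.

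Epithelial markers were present in part. KRT8, KRT17 and KRT18 had means of 303, 1131 and 367, but KRT5, KRT14, KRT19, EPCAM and TP63 had means of 1.20, 0.336, 0.520, 0.260 and 0.165, and 5 of 9 reached a mean of 1. COL1A1 had a mean of 629 and CD68 16.7. TSC22D3, a glucocorticoid-induced gene, separated libraries with and without mometasone at all 4 times, and NR4A3, a cyclic AMP-induced gene, separated those with and without indacaterol at 1, 2 and 6 h but not at 18 h. The mitochondrial share of a library ranged from 5.88% to 28.3%, and the 6 libraries above 20% were all replicate 1. They were not balanced over treatments: 5 held indacaterol and 1 held carbachol alone, while the highest share was 15.9% in vehicle and 14.8% with mometasone alone. The part of this share in the differences from vehicle was tested only by leaving those libraries out.

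LINC01085 was lower with indacaterol at 6 h and with mometasone at 18 h, and lowest where both were given. Its nearest coding genes are BOD1L1, 484.25 kb to one side, and CPEB2, 862.62 kb to the other. At 6 h the 5 vehicle libraries were at 11.81, 18.44, 14.99, 18.69 and 8.54, in the order of replicates 1 to 5. With indacaterol alone they were at 5.4, 9.16, 5.13, 9.23 and 4.35, and with mometasone and indacaterol together at 3.45, 6.28, 3.09, 5.2 and 2.86. Every library of the pair was below every vehicle library, whereas indacaterol alone overlapped vehicle only at replicate 5.

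Against vehicle at 6 h, LINC01085 fell with mometasone plus indacaterol from 14.5 ± 4.36 to 4.18 ± 1.49 (SD, n = 5 each). On log2(value + 1) it fell by 1.58 (SE 0.34, limma adjusted p = 0.000124), which is 2.98-fold. It fell with all 3 agents to 4.04 ± 1.31 (3.05-fold, limma adjusted p = 9.49e-05) and with indacaterol plus carbachol to 5.83 ± 2.10 (2.29-fold, limma adjusted p = 0.0314). The call with indacaterol plus carbachol was lost without replicate 1, 2, 3 or 4, with the compared groups only and with the same column sum (highest adjusted p 0.187). Indacaterol alone gave -1.02 (SE 0.34), lower in 5 of 5 same-numbered pairs, which did not pass (limma adjusted p = 0.125). It passed without replicate 5 (adjusted p = 0.00716), in a fit of the 6 h libraries alone (adjusted p = 0.0226) and under the replicate block (adjusted p = 2.15e-07). For indacaterol alone at 6 h, however, same-numbered libraries did not all deviate together (lowest correlation 0.059, beside a limit of 0.1). Over all alternatives the adjusted p ran up to 0.501. Fold changes on this scale understate the change of low genes. In bulk RNA, fewer cells with the transcript and less of it per cell cannot be told apart.

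Averaged over the 4 backgrounds that each agent was given in, indacaterol lowered LINC01085 at 6 h by 2.50-fold (log2 -1.32, SE 0.17, limma adjusted p = 1.45e-10), in 5 of 5 replicate numbers. The 20 libraries with indacaterol ran from 2.64 through a median of 5.03 to 9.23, and the 20 without from 7.22 through 14.6 to 20.17. These ranges overlapped only between 7.22 and 9.23. At 2 h the average was lower by 1.42-fold (limma adjusted p = 0.0271), which did not pass without replicates 1, 2, 3 or 4 in turn, or without the 6 libraries above 20% mitochondrial (adjusted p = 0.116). At 18 h it was -0.60 (SE 0.19, limma adjusted p = 0.101), and -0.50 with the replicate number as a block (limma adjusted p = 1.29e-05). At 2 h same-numbered libraries deviated together, and with the replicate number as a block the fall passed for indacaterol alone (-0.46, limma adjusted p = 0.0463) and with carbachol (-0.55, limma adjusted p = 0.0105).

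With mometasone the fall was called at 18 h in the fit without a block. The change of LINC01085 averaged over backgrounds was 0.30 after 1 h (limma adjusted p = 0.752), 0.38 after 2 h (limma adjusted p = 0.203) and -0.32 after 6 h (limma adjusted p = 0.137). After 18 h it fell by 1.39 (SE 0.19, limma adjusted p = 7.2e-10), which is 2.62-fold, in 4 of 4 replicate numbers. With the replicate number as a block, the rise at 2 h (0.38, limma adjusted p = 4.66e-05) and the fall at 6 h (-0.32, limma adjusted p = 0.00025) also passed. The 14 libraries with mometasone at 18 h ran from 1.37 through 4.18 to 7.19 and the 18 without from 4.57 through 13.97 to 20.95. Replicate 5 was the lowest of its group in 27 of 29 groups that held it, and it is missing from the mometasone group at 18 h but present in the others. Without replicate 5, the change with mometasone alone against vehicle at 18 h was -1.62 (limma adjusted p = 1.6e-05), beside -1.27 with all libraries.

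At 18 h the vehicle libraries for replicates 2 to 5 were at 16.93, 18.62, 20.95 and 6.43. Mometasone alone, held by replicates 2 to 4, gave 7.19, 4.53 and 4.83, and mometasone with indacaterol gave 2.78, 2.61, 3.43 and 1.61. The vehicle values exceeded every mometasone plus indacaterol value, and overlapped mometasone alone only at vehicle replicate 5. LINC01085 fell 4.37-fold with the pair (log2 -2.13, SE 0.38, limma adjusted p = 3.56e-06) and 3.88-fold with all 3 agents (limma adjusted p = 0.000121). The group with all 3 agents held replicates 2, 3 and 5 (n = 3). It lacked replicate 4, which had the highest median of LINC01085 over libraries (18.7). Mometasone alone gave 2.41-fold (limma adjusted p = 0.0288) and mometasone with carbachol 2.49-fold (limma adjusted p = 0.00989), both lost on leaving out replicate 2, 3 or 4, with the compared groups only and with the same column sum (highest adjusted p 0.303 and 0.141). A fit of the compared groups alone ended the call with all 3 agents (adjusted p = 0.0925).

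The difference in time was tested directly, after the data had been seen. The change of LINC01085 minus its change at 1 h was -1.69 (SE 0.26, limma adjusted p = 4.61e-08) for mometasone at 18 h and -1.15 (SE 0.24, limma adjusted p = 0.000212) for indacaterol at 6 h. Mometasone alone and all 3 agents lack replicate 5 at 1 h. Over 12 alternatives, leaving out replicate 5 among them, these differences ran from -1.92 to -1.62 and from -1.30 to -1.06, and both stayed past the threshold. The interaction of mometasone and indacaterol was -0.37 (SE 0.48) at 6 h and -0.20 (SE 0.54) at 18 h, both with a limma adjusted p of 1, so no departure from additive change on the log2 scale was detected. By combination at 6 h, libraries holding both agents had a mean of 4.11 ± 1.33, mometasone only 13.4 ± 3.94, indacaterol only 6.24 ± 2.15 and neither 15.0 ± 4.06 (SD, n = 10 each). At 18 h they had 2.88 ± 1.138 (n = 7), 5.52 ± 1.66 (n = 7), 10.6 ± 4.35 (n = 9) and 15.2 ± 5.82 (n = 9).

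**Figure D2:**
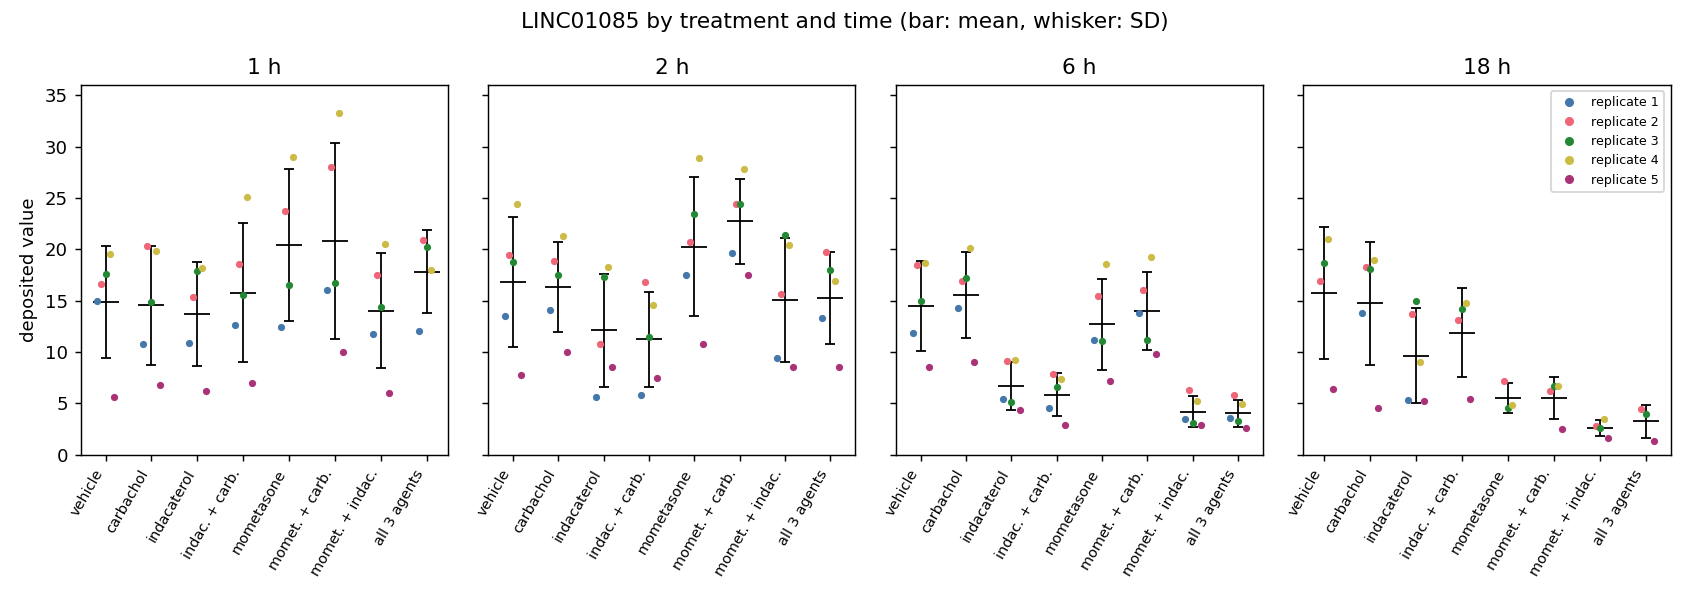
LINC01085 by treatment and time, as the deposited value, with 1 point per library coloured by replicate, a bar for the mean and whiskers for the SD. With mometasone plus indacaterol the mean is 4.18 at 6 h and 2.61 at 18 h, against 14.5 and 15.7 in vehicle.

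CPEB2, a coding neighbour of LINC01085, also fell with mometasone at 18 h averaged over backgrounds (log2 -0.54, SE 0.18, limma adjusted p = 0.0117) and at 6 h by 0.53 (adjusted p = 0.00384). BOD1L1, which guards stalled replication forks, gave 0.09 at 18 h (limma adjusted p = 0.518). Both were chosen only as neighbours of LINC01085.

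On average over backgrounds, mometasone raised 3 members and lowered 2 of 14 at 6 h, where 33.0% of all genes tested were called. SLC44A3-AS1 was 2.04-fold higher (log2 1.03, SE 0.20, limma adjusted p = 1.32e-05), TP73-AS1 1.31-fold (SE 0.07, limma adjusted p = 1.44e-06) and LINC00888 1.30-fold (SE 0.08, limma adjusted p = 7.91e-05). LINC02210 fell 1.24-fold (limma adjusted p = 0.000955) and LINC00869 fell 1.31-fold (limma adjusted p = 0.00251). All 5 went the same way in 5 of 5 replicate numbers, and all 5 stayed past the threshold in each of the 13 alternatives.

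At 6 h the vehicle libraries of SLC44A3-AS1 were at 26.64, 67.35, 27.36, 44.84 and 42.35, for replicates 1 to 5. With mometasone alone they were at 64.86, 156.02, 64.51, 70.64 and 125.66. Mometasone exceeded vehicle in 5 of 5 replicate pairs, and the groups overlapped because vehicle replicate 2 exceeded mometasone replicates 1 and 3. SLC44A3-AS1 rose 2.25-fold (log2 1.17, SE 0.41, limma adjusted p = 0.0484) with mometasone alone and 2.41-fold (limma adjusted p = 0.0253) with mometasone plus carbachol. The first call was lost under 7 of 13 alternatives, among them leaving out replicate 1, 2, 4 or 5 and fitting the compared groups only, with the highest adjusted p at 0.143. The second was lost without replicate 1, 2 or 4 (highest adjusted p 0.125). SLC44A3, its partner, gave -0.16 with mometasone alone (limma adjusted p = 0.709), and TIMM50, the longest of its 25 matches in the table, 0.01 with mometasone on average (adjusted p = 0.97). The other matches were not examined.

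LINC00888 at 6 h was at 2.58, 2.13, 2.78, 1.65 and 1.65 in vehicle and at 3.66, 3.32, 3.4, 3.78 and 3.28 with mometasone alone. All mometasone libraries were above all vehicle ones. The change was 0.52 on the log2 scale (SE 0.16, limma adjusted p = 0.023), and 0.53 with mometasone plus carbachol (adjusted p = 0.0204) and 0.48 with mometasone plus indacaterol (adjusted p = 0.0279). Scaling to the same column sum ended each of these calls. Leaving out replicate 2 or 4 did so too, as did leaving out replicate 1 for mometasone alone and with indacaterol. With indacaterol the call was also lost without the libraries above 20% mitochondrial and with a pseudocount of 0.1 (limma adjusted p = 0.0504). The highest adjusted p over alternatives was 0.194, 0.139 and 0.197 for mometasone alone, with carbachol and with indacaterol.

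TP73-AS1 at 6 h ran from 11.87 to 20.38 (median 16.5) in 20 libraries with mometasone and from 9.51 to 15.22 (median 11.99) in 20 without, so the ranges overlapped. At 18 h it rose by 0.26 on average (log2, limma adjusted p = 0.00491). With all 3 agents at 18 h it was at 20.92, 19.14 and 21.68 in replicates 2, 3 and 5, against 14.72, 12.88, 11.78 and 17.24 in vehicle replicates 2 to 5. The groups did not overlap (log2 0.52, SE 0.17, limma adjusted p = 0.0242), and the call was lost under 5 of 13 alternatives, leaving out replicate 2, 3 or 4 among them (highest adjusted p 0.177). With mometasone plus indacaterol at 18 h the change of 0.40 passed with the replicate block (limma adjusted p = 0.00952). TP73 itself gave 0.11 (adjusted p = 0.469) at 6 h and 0.16 (adjusted p = 0.313) at 18 h with mometasone on average.

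LINC02210 ran from 12.23 to 20.58 (median 15.9) with mometasone at 6 h and from 16.17 to 24.74 (median 20.4) without. KANSL1, its longest match and a subunit of a histone acetyltransferase complex, rose by 0.27 (limma adjusted p = 0.000198), opposite in sign. LINC00869 ran from 4.99 to 11.78 with mometasone and from 7.45 to 14.59 without, and FAM91A1, its longest match, gave -0.26 (SE 0.12, limma adjusted p = 0.0959). FAM91A2P and FAM91A3P, which LINC00869 matched at higher identity, were not examined. With mometasone plus carbachol at 6 h, LINC00869 was at 7.25, 6.59, 4.99, 6.81 and 7.42 against 12.99, 8.86, 10.33, 8.26 and 14.59 in vehicle. These groups did not overlap (log2 -0.64, SE 0.22, limma adjusted p = 0.0458), and the call was lost under 6 of 13 alternatives, leaving out replicate 1, 2, 3 or 5 among them (highest adjusted p 0.236). With all 3 agents, where same-numbered libraries deviated together, the replicate block brought calls at 2 h for LINC02210 (-0.32, limma adjusted p = 0.0398), LINC00869 (-0.53, limma adjusted p = 0.019) and LINC01881 (0.68, limma adjusted p = 0.0104). At 6 h it did so for LINC02210 (-0.33, limma adjusted p = 0.0179) and LINC00869 (-0.52, limma adjusted p = 0.013).

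**Figure D3:**
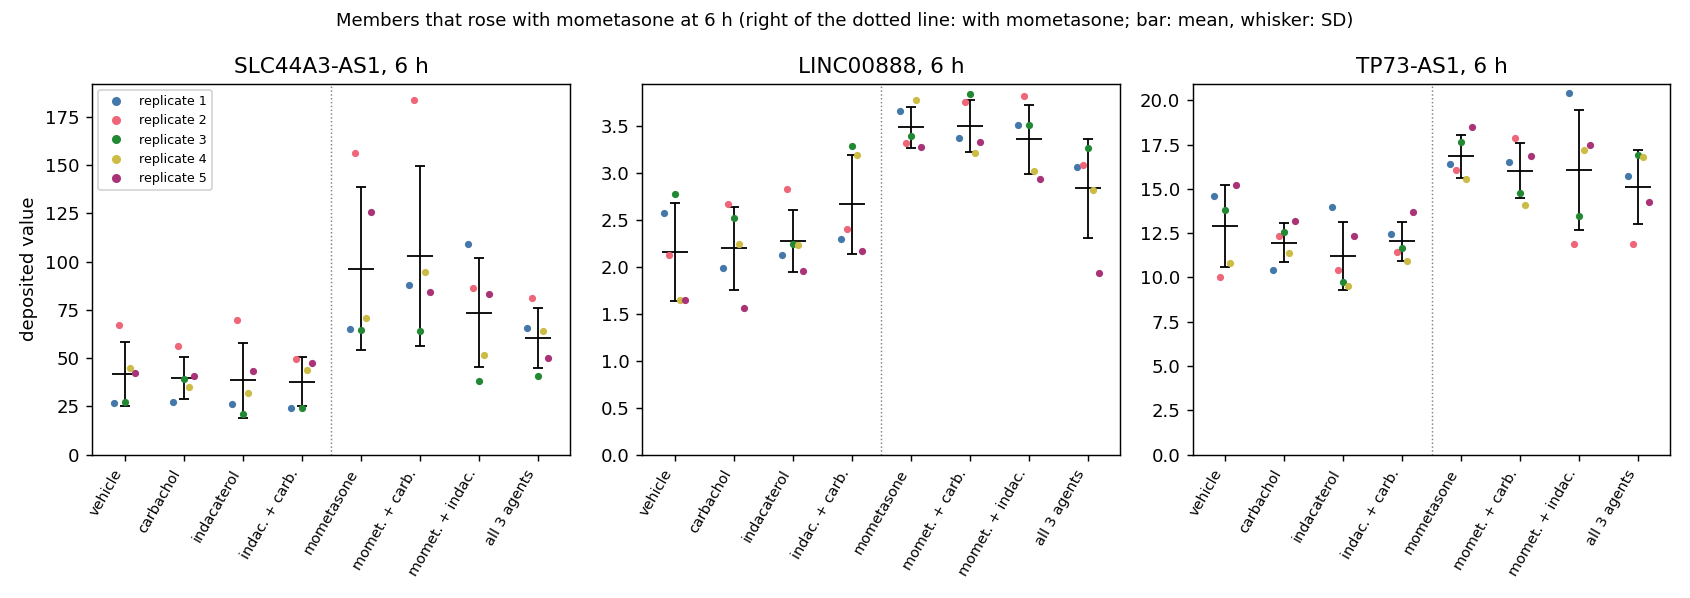
SLC44A3-AS1, LINC00888 and TP73-AS1 at 6 h by treatment, as the deposited value, with 1 point per library, a bar for the mean and whiskers for the SD. The 4 treatments with mometasone, right of the dotted line, sit higher but overlap those without, as for TP73-AS1 at 11.87 to 20.38 against 9.51 to 15.22.

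At 18 h, where 31.5% of genes were called for mometasone on average and 4 members were, it also raised EMC3-AS1 by 0.22 (SE 0.09, limma adjusted p = 0.0399), in 3 of 4 replicate numbers. It raised LINC00993 by 0.40 (SE 0.16, limma adjusted p = 0.0387), in 4 of 4. EMC3-AS1 ran from 36.07 through a median of 40.38 to 47.08 in 14 libraries with mometasone and from 27.26 through 33.1 to 47.53 in 18 without. LINC00993 ran from 7.71 through 13.8 to 17.79 and from 4.38 through 9.70 to 19.31. The ranges overlapped for both, and both calls were close to the threshold: LINC00993 was lost under 9 of 13 alternatives, among them leaving out replicate 2, 3, 4 or 5, and EMC3-AS1 under 5, replicate 2, 3 or 5 among them. FANCD2, a DNA repair gene and the longest match of EMC3-AS1, rose by 0.23 (limma adjusted p = 0.0228), and EMC3 gave 0.14 (adjusted p = 0.214).

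With indacaterol on average at 6 h, 2 members were called beside 13.1% of genes, LINC01085 and LINC00680. LINC00680 fell by 0.36 (SE 0.10, limma adjusted p = 0.00358), in 5 of 5 replicate numbers. Libraries ran from 3.95 to 11.66 with indacaterol and from 6.43 to 11.27 without. With all 3 agents LINC00680 was at 5.13, 6.28, 6.73, 3.95 and 5.33 against 6.43, 10.09, 11.27, 11.11 and 8.13 in vehicle, ranges that overlapped only at vehicle replicate 1. It fell by 0.67 (SE 0.19, limma adjusted p = 0.00675), which was lost without replicate 4 (adjusted p = 0.145). GUSBP1, the longest match shown above, gave -0.14 (SE 0.10, limma adjusted p = 0.437) with indacaterol at 6 h.

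SRP54-AS1 fell with mometasone plus indacaterol at 2 h. Vehicle libraries were at 2.33, 2.01, 2.57, 2.07 and 1.75, and those with both agents at 0.25, 1.4, 0.56, 1.34 and 1.2. The groups did not overlap, with means of 2.15 ± 0.31 and 0.95 ± 0.51 (SD, n = 5 each). The change was -0.73 on the log2 scale (SE 0.24, limma adjusted p = 0.046), and it was lost under 6 of 13 alternatives, leaving out replicate 1, 3 or 5 among them (highest adjusted p 0.324). SRP54, the partner, gave -0.01 (adjusted p = 0.997). SRP54-AS1 means at 2 h were 2.18 with mometasone, 2.73 with indacaterol and 2.16 with carbachol alone. They were 1.57 with mometasone plus carbachol, 2.27 with indacaterol plus carbachol and 1.95 with all 3 agents. None of these was called against vehicle. The mean of 0.95 lies below 1, the value a gene had to reach in 5 or more libraries to be tested.

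**Figure D4:**
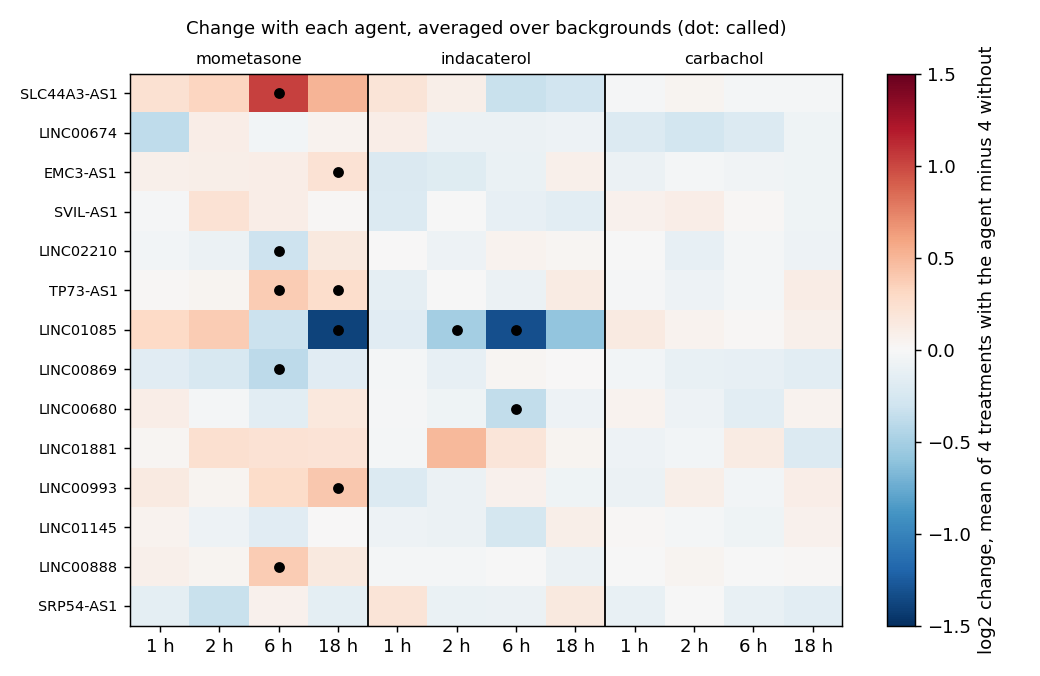
Change of the 14 members with mometasone, indacaterol and carbachol averaged over backgrounds, on the log2(value + 1) scale, as a colour for each time, with a dot where limma called it. LINC01085 falls by 1.32 with indacaterol at 6 h and by 1.39 with mometasone at 18 h.

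Counts of members called against vehicle are read beside the share of all 14827 genes tested. With mometasone alone no member passed at 1 h, where 0.472% of genes did, or at 2 h (1.99%), 2 of 14 (14.3%) passed at 6 h (9.61%) and 1 (7.14%) at 18 h (9.10%). With indacaterol alone no member passed in limma's test at 1, 2, 6 or 18 h, where 1.40%, 3.91%, 1.74% and 0.202% of genes did, and 1 member had an unadjusted p under 0.05. With carbachol alone none passed, against 0.0809%, 0.0270%, 0% and 0.00674% of genes at these times, and 1 had an unadjusted p under 0.05. With counts this small, the members' shares do not stand apart from the background.

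At 1 time or more, 3 members were called with mometasone plus indacaterol (26.0% of genes), 4 or 28.6% with mometasone plus carbachol (15.3%), 1 or 7.14% with indacaterol plus carbachol (6.51%) and 3 with all agents (23.2%). On average over backgrounds, 8 members or 57.1% were called for mometasone (46.1% of genes), 2 or 14.3% for indacaterol (22.6%) and 0 for carbachol (0.277%), where 0 members had an unadjusted p under 0.05 in limma's test. With the replicate block more genes passed throughout. Members called became 5 for mometasone alone (28.3% of genes at 1 time or more), 1 for indacaterol alone (11.3%), 6 for mometasone plus indacaterol (45.8%) and 6 for all agents (40.8%). At 6 h the median change of the members with mometasone was 0.08 beside 0.02 over all genes tested.

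No member was called by limma for the interaction of indacaterol and carbachol (0.00674% of genes, 2 members at an unadjusted p under 0.05) or of mometasone and indacaterol (0.607%, 1 member). Over time in vehicle none was called (0.378%, 4 members at an unadjusted p under 0.05). For the change minus that at 1 h, 3 members were called for mometasone (25.1%) and 1 for indacaterol (9.41%). In these the change of SLC44A3-AS1 with mometasone at 6 h was higher by 0.80 (SE 0.29, limma adjusted p = 0.0425) and that of TP73-AS1 by 0.37 (SE 0.10, limma adjusted p = 0.00351). The first was lost under 8 of 12 alternatives, leaving out replicate 1, 2, 4 or 5 among them (highest adjusted p 0.187), and the second without replicate 3 (adjusted p = 0.0507).

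Over treatments and averages 10 of 14 members were called at least once, where 53.6% of genes were. Against vehicle 7 were called (33.0% of genes) and on average 9 (52.2%). LINC00674, SVIL-AS1, LINC01881 and LINC01145 were not, with lowest limma adjusted p against vehicle of 0.634, 0.584, 0.305 and 0.166. With the replicate block, indacaterol on average passed for LINC01881 at 2 h (0.48, limma adjusted p = 6.24e-05) and for LINC01145 at 6 h (-0.26, limma adjusted p = 0.00987). LINC01881 was also called without replicate 5, and LINC01145 without replicate 3 and with median-ratio scaling. Of the second list, TUG1 fell with indacaterol at 2 h on average by 0.21 (SE 0.07, limma adjusted p = 0.0216) and SNHG32 rose with mometasone at 18 h by 0.26 (SE 0.11, limma adjusted p = 0.0492).

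Replicate number carried much of the spread within groups for some members. It held 77.9% of the within-group sum of squares for LINC01085, 71.3% for LINC01881 and 61.5% for SLC44A3-AS1, and 2.12% for SRP54-AS1. Over libraries, LINC01085 had a median of 6.82 in replicate 5, against 11.9, 16.7, 15.3 and 18.7 in replicates 1 to 4. LINC01881 had a median of 3.32 in replicate 5 and between 6.0 and 9.48 in the others.

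**Figure D5:**
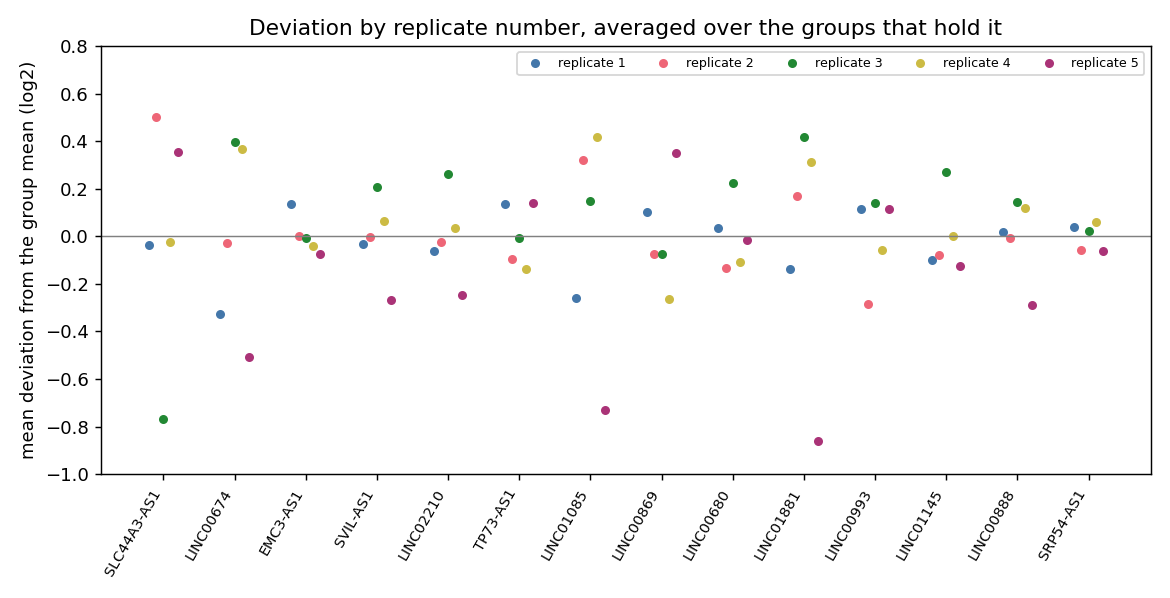
Mean deviation of each member from its group mean, 1 point per replicate number, on the log2(value + 1) scale. Replicate 5 sits low for LINC01085 and LINC01881, and replicate 3 is at -0.77 for SLC44A3-AS1.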

How the data were processed

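Total RNA of 150 libraries was used. 4 columns marked excluded and 6 headed 8 h, a time that labels lack, were left out, so 10 per-sample columns were not used. Per the submitters' processing notes, bcl2fastq 2.17.1.14 and STAR 2.4.2a were run against GRCh38. No source used here gives the quantifier, its annotation, strand use or scaling. The authors' deposited values, which they call TPM, sum to between 847289 and 1498421 per column and were taken as a normalised signal. TPM had been assumed in the design, and its test was kept. Depth is unknown, so precision rests on replicate spread.

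The scale was log2(value + 1). A limma fit (3.58.1, R 4.3.3) had 1 coefficient for each of 32 groups and a trended prior. P-values were adjusted by Benjamini-Hochberg per comparison and time, and an adjusted p under 0.05 was called. Of 29273 genes, 14827 reached 1 in 5 or more libraries and were tested, all 14 members included. Matches were sought with blastn 2.17.0, and the fit was tested on simulated data. Same-numbered libraries deviated together (every correlation over 0.1) in 17 of 28 comparisons. Members and lists were chosen with earlier results of these data known. Named were called members, the most abundant ones, those beside the level limit, and their partners, longest matches and neighbours. Alternatives changed the pseudocount, filter, block, scaling, groups fitted and libraries.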

Additional observations from a re-analysis of the deposited data

Results flagged for a closer look

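Of 21 group and member combinations tested for a sample far from the rest, 2 stood out, while chance alone gives about 1 in 20. SLC44A3-AS1 with mometasone plus carbachol at 6 h was at 183.85 in replicate 2, against 64.06 to 94.78 in the other replicates. LINC01085 with mometasone plus carbachol at 18 h was at 2.52 in replicate 5, against 6.24 to 6.7 in the others.

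The change with an agent differed between times in 4 cases by a test of the difference itself, on the log2 scale. With mometasone, the change at 6 h minus that at 1 h was 0.80 for SLC44A3-AS1 and 0.37 for TP73-AS1. The change of LINC01085 at 18 h minus that at 1 h was -1.69. With indacaterol the change of LINC01085 at 6 h minus that at 1 h was -1.15.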

How the results depend on the processing

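Counts of members called were recomputed under alternatives: 141 of 168 values were within 1.5 times the count reported and 27 were not. The causes of those shifts were not tested. Each count is followed by the share of all genes tested that was called under the same setting. Leaving out 1 replicate in turn gave 0 to 2 members for mometasone alone (8.5% to 14.2% of genes), 0 to 1 for indacaterol alone (3.47% to 5.38%), 0 to 3 for mometasone plus carbachol (9.73% to 15.5%, with 0 members without replicate 2), 0 to 1 for indacaterol plus carbachol (4.09% to 8.41%) and 1 to 3 for all agents (15.8% to 23.9%). Fitting the compared groups only gave 1 for mometasone (10.6%) and 0 for indacaterol plus carbachol (3.33%). Fitting each time alone gave 1 for indacaterol (5.23%) and 5 for all agents (25.6%). Scaling to the same column sum gave 5 for mometasone plus indacaterol (23.9%), 0 for indacaterol plus carbachol (5.76%) and 4 for indacaterol on average (22.4%). Fitting each time alone gives no value for vehicle over time or for changes minus that at 1 h.

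With the replicate number as a block, members called became 5 for mometasone (28.3% of genes), 1 for indacaterol (11.3%), 6 for mometasone plus indacaterol (45.8%), 6 for all agents (40.8%), 6 for indacaterol on average (39.8%), 1 for the interaction of indacaterol and carbachol (LINC00993, 2.77%) and 1 over time in vehicle (LINC02210, 7.19%). For changes minus that at 1 h, tests added after the data were seen, the block gave 5 for mometasone (41.7%) and 4 for indacaterol (19.7%), and the same column sum 3 for indacaterol (7.68%). Where the pairing held, the block passed indacaterol at 2 h for LINC01085 (adjusted p = 0.0463). Of 412 alternative values of 32 called changes, 325 kept the call, 87 lost it and 0 reversed. The same column sum moved the median of all genes by -0.163 to 0.145 (log2), over 0.1 in 8 comparisons, and median-ratio scaling by -0.042 to 0.011. Depth is unknown, so what low values can show is limited.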
